A study of Mus musculus with 8 samples.

Results

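The regions described here are the places in the genome of a mouse mammary epithelial cell line where CHD4 stood taller, relative to its other sites, than Brg1 and Snf2h did. They were picked from 10442 common regions, the merged intervals that held a hotspot, an interval enriched for sequence tags, of each of 6 chromatin immunoprecipitation libraries. Merging all hotspots that overlapped by at least 1 bp gave 532751 intervals, so common regions were 1.96% of them. In each library a region was given the highest maximum tag density of its hotspots and then its percentile among the common regions, where 100 is the tallest. A region was CHD4-highest when both CHD4 percentiles were strictly above the other 4. This held for 615 regions, or 5.89% of the common regions. The corresponding rule gave 1756 Brg1-highest regions (16.8%) and 2260 Snf2h-highest regions (21.6%).

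The groups were untreated cells of the 3134 mammary line, immunoprecipitated with a monoclonal antibody to Brg1, with an antibody to CHD4 or with an antibody to Snf2h, in replicates 1 and 2 of each. All libraries came from that 1 line, and nothing in the labels says that replicates were separate cultures. The extraction text of the labels belongs to a DNase I assay on other lines, made to express dominant-negative proteins, and does not describe the precipitation. The lists held from 32310 hotspots (Snf2h replicate 1) to 293135 (CHD4 replicate 2), with lowest Z scores, the authors' measure of enrichment, of 2.00 in replicate 2 of Brg1 and CHD4 and of 8.50 to 9.49 in the others. Tag numbers are unknown, and the DNA inputs were not analysed here. At any region named, binding, copy number, mappability and general background therefore cannot be told apart. Coordinates are on mm9, and the genes and sequence at them were not analysed here.

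CHD4 is the ATPase of the NuRD complex, which joins nucleosome remodeling to histone deacetylation and is known both for silencing genes and for residing at active enhancers and promoters. Brg1 is the ATPase of SWI/SNF complexes, which slide and evict nucleosomes and open chromatin at regulatory elements. Snf2h is the ATPase of ISWI complexes, which space nucleosomes evenly and help to order them around sites of sequence-specific factors. All 3 can be found at the same regulatory elements, where their relative amounts may differ.

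In the median, the CHD4-highest regions were tall in CHD4 and nearer to the usual level in Brg1 and Snf2h. Few held that contrast in full: both CHD4 libraries were above percentile 75 and the other 4 below 50 at 9 of the 615. The rule chose them by these heights, so they are given as a description with no test. In CHD4 replicate 1 the maximum tag density ran from 6.93 to 183 with a median of 36.4, against a median of 20.1 over all common regions. In CHD4 replicate 2 it ran from 3.95 to 141 with a median of 24.7, against 13.6. Both CHD4 libraries were thus well above their usual level at these regions. The Brg1 medians were 52.7 and 29.6, against 47.5 and 21.8 over all common regions. The Snf2h medians were 20.8 and 27.9, against 20.1 and 27.9. Brg1 was somewhat above its usual level and Snf2h was at it. Densities are in the authors' units, whose scaling is not stated, and are compared only within a library.

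**Figure D1:**
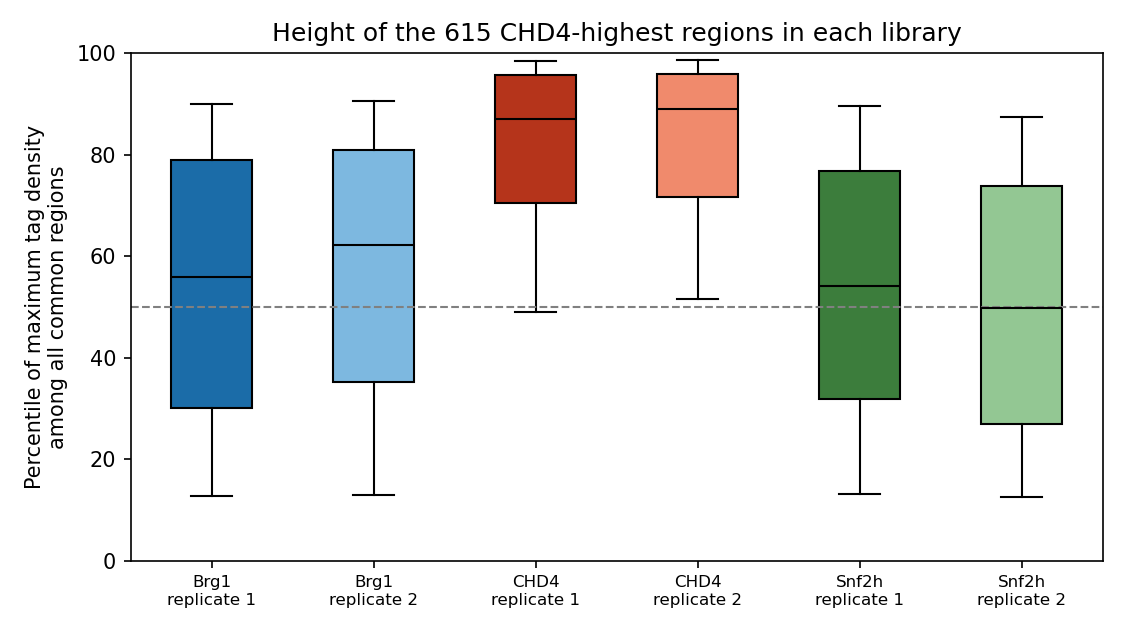
Percentile of maximum tag density among the 10442 common regions (y axis) of the 615 CHD4-highest regions in each library (x axis). Boxes span the middle 50% with the median as a line, whiskers reach the 10th and 90th percentiles, and the dashed line marks 50, the middle of all common regions. The CHD4 medians are 87.0 and 88.9 and the others lie between 49.8 and 62.2. The libraries overlap widely because the rule compares them within each region and not across regions.

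As percentiles, the medians were 87.0 and 88.9 for CHD4, 55.9 and 62.2 for Brg1, and 54.1 and 49.8 for Snf2h. Both CHD4 libraries were above percentile 90 at 227 of the 615 regions (36.9%) and above 75 at 405 (65.9%). Over all common regions these shares were 5.92% and 17.1%. At 45 regions (7.32%, against 37.9% of all common regions) both were below 50, so a few members were low in every library and only less low in CHD4. With the common regions in 10 equal steps of mean CHD4 percentile, the highest step held 306 members, 29.3% of its regions, and the lowest held 7, or 0.670%. A region at the top of the CHD4 ranking has little room for other libraries above it, so this gradient follows in part from the rule. All 6 libraries were above percentile 90 at 7 members (1.14%) and above 75 at 41 (6.67%), against 0.316% and 1.85% of all common regions. The opposite pattern, both CHD4 libraries above 75 and the other 4 below 50, was met at 9 regions, which are members by the rule.

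The lead of CHD4 was small at most members. The lead is the lower CHD4 percentile minus the highest of the other 4, and its median was 4.37 percentile points, with the middle 50% of members from 1.76 to 8.82. It was under 1 point at 98 regions (15.9%) and at least 10 points at 132 (21.5% of members and 1.26% of all common regions). A lead of at least 20 points was found at 47 regions and one of at least 40 at 9. The regions just inside the threshold were on chromosome 14 at 17315139 to 17317550 and at 65258149 to 65259227 and on chromosome 4 at 88595644 to 88596972, with leads of 0.01 to 0.02. At the first of them the CHD4 percentiles were 89.6 and 93.8 and that of Brg1 replicate 2 was also 89.6. Just outside lay a pair on chromosome 8, at 19784321 to 19785311 and 20019637 to 20020624, which are among the tallest in every library, and a region on chromosome 16 at 42874468 to 42877058. Those had leads of 0.00, 0.00 and -0.02, so regions on either side of the threshold differ little in lead. They differ widely in height. At the chromosome 8 pair the CHD4 and Snf2h libraries tied at the top, at percentile 99.99 in the first region and 100 in the second. On chromosome 16 the CHD4 percentiles were 34.7 and 52.9.

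**Figure D2:**
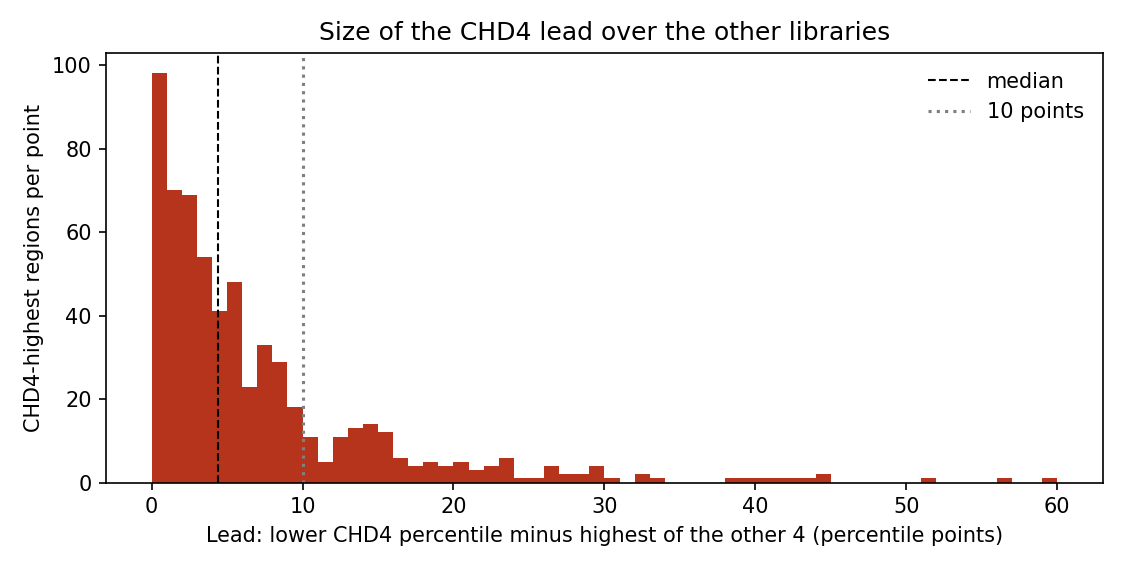
Number of CHD4-highest regions (y axis) by the size of the CHD4 lead in bins of 1 percentile point (x axis). The dashed line is the median of 4.37 points and the dotted line marks 10 points, which 132 of the 615 regions reach. Most regions crowd near 0 and the tail runs to 59.5 points.

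The library that ranked next after the CHD4 pair was of Brg1 at 327 members (53.2%) and of Snf2h at 288 (46.8%). Brg1 replicate 2 was next most often, at 217 regions, followed by Snf2h replicate 2 at 148, Snf2h replicate 1 at 140 and Brg1 replicate 1 at 110. An Snf2h library was the lowest of the 6 at 353 members and a Brg1 library at 262. Both Brg1 libraries were above both Snf2h libraries at 213 members (34.6%), near the 34.0% of all common regions. Both Snf2h libraries were above both Brg1 libraries at 163 (26.5%), against 34.3% of all common regions. Among the 132 regions with a lead of at least 10 points the next library was of Brg1 at 63 and of Snf2h at 69. Their medians were 81.8 and 84.6 in CHD4, 39.7 and 48.1 in Brg1, and 39.6 and 39.9 in Snf2h. In the median Brg1 and Snf2h were both below the middle of the common regions here, which follows in part from choosing a large lead. Single regions differed.

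The 10 regions of largest lead are single cases, and only some of them had tall CHD4 with both Brg1 and Snf2h low. The largest lead, 59.5 points, was on chromosome 15 at 72897759 to 72899849, where the CHD4 densities were 47.2 and 33.6. Brg1 had 28.4 and 8.22 there, and Snf2h 17.3 and 19.4. Those heights put the CHD4 libraries at percentiles 95.1 and 96.8 and the others at 7.94 to 35.6. On chromosome 19 at 34995268 to 34997521 the CHD4 densities were 41.3 and 25.5, beside 26.6 and 12.0 in Brg1 and 16.6 and 21.5 in Snf2h. Its percentiles were 91.6 and 90.2 in CHD4 and between 19.7 and 33.7 elsewhere, a lead of 56.5 points. At both of these regions Brg1 was the lowest pair by percentile.

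On chromosome 16 at 57391434 to 57391991, a narrow region of 558 bp, the CHD4 densities were 68.6 and 69.7. Brg1 had 33.0 and 11.1 and Snf2h had 15.2 and 27.2, and the CHD4 percentiles of 99.3 and 99.9 stood above an Snf2h replicate 2 percentile of 48.1. This was 1 of the 9 regions with both CHD4 libraries above percentile 75 and all others below 50. On chromosome 8 at 126973842 to 126976157 the libraries of one antibody parted more. Brg1 replicate 2 had a density of 22.5, at percentile 51.0, and Brg1 replicate 1 had 16.2, at percentile 6.47. The CHD4 densities there were 48.5 and 40.8, and those of Snf2h were 11.1 and 21.0.

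Not every large lead came with a tall CHD4 site. On chromosome 5 at 17282198 to 17282898 the CHD4 densities were 23.2 and 12.8, at percentiles 60.9 and 45.5, near the middle of the common regions. Brg1 had 6.95 and 2.85 and Snf2h had 9.70 and 5.20, all at percentiles under 3, so the lead of 42.7 points came from very low Brg1 and Snf2h. Chromosome 10 at 40089686 to 40091558 was alike in kind. There the CHD4 densities of 24.3 and 22.0 gave percentiles of 64.1 and 83.5, and the other 4 libraries were at percentile 20 or lower.

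The other end of that range was on chromosome 7 at 137977208 to 137979363, with CHD4 densities of 99.5 and 53.6 at percentiles 99.9 and 99.7. Brg1 was at 50.4 and 27.0, at percentiles 53.2 and 58.9, and Snf2h at 13.9 and 23.6, at percentiles 16.5 and 39.2. On chromosome 12 at 66273111 to 66274840 the order of the other antibodies was turned around. With CHD4 at 85.3 and 46.9, Snf2h had percentiles of 60.0 and 57.1 and Brg1 of 23.1 and 25.8. The remaining regions of the 10 were on chromosome 2 at 126532436 to 126534037, with a lead of 43.2 points, and on chromosome 8 at 109050845 to 109052071, with 41.8. The CHD4 densities were 34.7 and 26.7 at the first and 34.7 and 27.9 at the second. The first had its other libraries at percentiles of 13.1 to 41.7 and the second at 31.6 to 43.2.

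**Figure D3:**
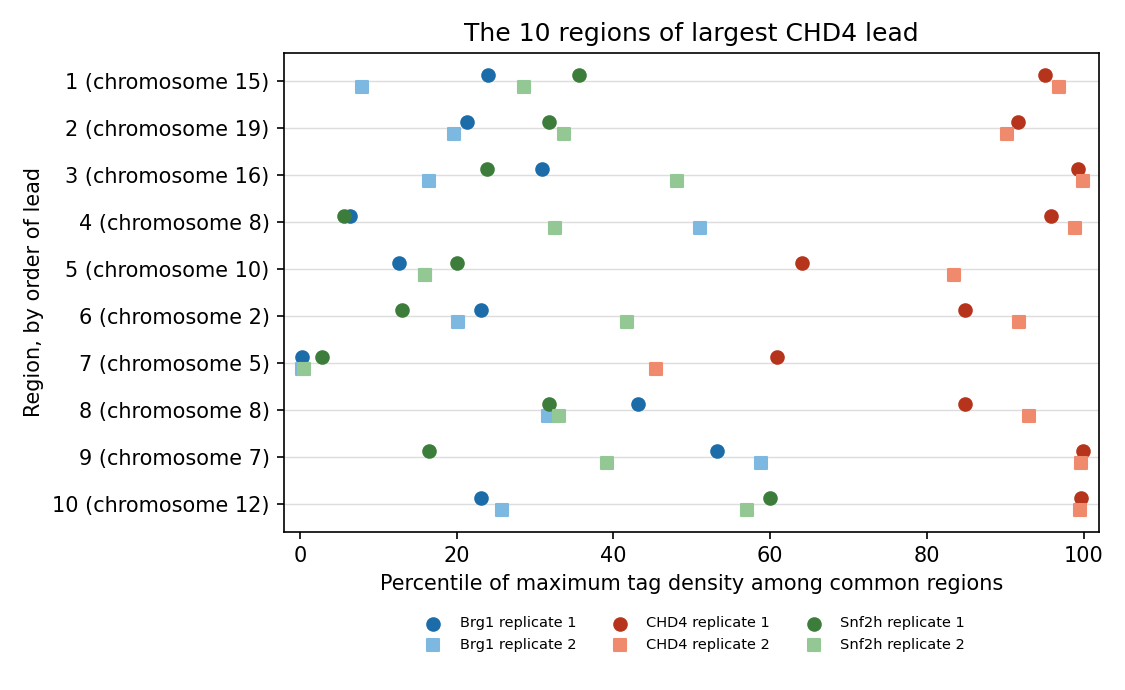
Percentile of maximum tag density among the common regions (x axis) in each of the 6 libraries for the 10 regions of largest CHD4 lead, in order from the top (y axis, with the chromosome). Circles are replicate 1 and squares replicate 2, offset slightly in height. The CHD4 points lie apart to the right in each row, from 45.5 to 99.9, and rows 5 and 7 have them nearer the middle.

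The tallest CHD4 sites of the set had smaller leads. The highest mean CHD4 percentile was on chromosome 11 at 98900947 to 98903465, with CHD4 densities of 183 and 127, Brg1 of 85.1 and 30, and Snf2h of 40.9 and 61.5. The lead there was 7.26 points, because Snf2h replicate 1 was at percentile 92.7. A pair near the start of the same chromosome, at 3064327 to 3066133 and 3059416 to 3060243, was at percentile 95.1 or above in every library and had leads of 0.08 and 0.02. On chromosome 5 at 147072304 to 147073182 CHD4 reached 145 and 97.4 while Snf2h had 23.5 and 41.1. The Brg1 libraries parted at that region, with 114 (percentile 88.6) and 16.3 (percentile 34.7). On chromosome 15 at 74916411 to 74917670 it was the Snf2h libraries that parted, with 54.7 (percentile 97.6) and 9.93 (percentile 5.69), beside CHD4 at 98.5 and 136.

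The same measure was then read in libraries that took no part in the choice. Regions were chosen in the replicate 1 libraries alone, where CHD4 was the highest of 3 at 2744 common regions (26.3%), and were then looked up in the replicate 2 libraries. CHD4 was again the highest there at 946 of them, or 34.5% (95% Wilson interval 32.7% to 36.3%), against 21.8% of all common regions. In the other direction, 2272 regions chosen on replicate 2 (21.8%) had CHD4 highest in replicate 1 at 41.6% (39.6% to 43.7%), against 26.3%. Both shares were above the share over all common regions by more than the counting error, and in both directions most chosen regions did not have CHD4 highest in the other libraries. The median CHD4 lead in the libraries not used was -6.88 points in the first direction and -3.39 points in the second, against -15.6 and -12.5 over all common regions. With 1 library of each antibody on either side, a difference between libraries could not be tested. The 946 regions hold all 615 members by the rule, so these shares are a description and no independent check of the members.

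At the largest leads the share was higher. Of 265 regions with a lead of at least 30 points in the replicate 1 libraries, CHD4 was highest in replicate 2 at 43.0% (37.2% to 49.0%). Of 150 such regions chosen on replicate 2, it was highest in replicate 1 at 51.3% (43.4% to 59.2%). At a lead of at least 10 points the shares were 33.5% and 42.3%, the same within counting error as with any lead. For Brg1 the same procedure gave 58.6% in the first direction, against 35.9% of all common regions, and 59.1% in the second, against 36.2%. For Snf2h it gave 70.7% against 42.3% and 62.6% against 37.5%.

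The surroundings of a region were not used by the rule. CHD4-highest regions had flanking hotspots of CHD4, Brg1 and Snf2h more often than common regions at large, though in the longest lists by little. In the 5 kb on either side, outside the region, 53.5% of members had a hotspot of CHD4 replicate 1, against 37.3% of all common regions. For Brg1 replicate 1 the shares were 69.4% against 55.6%. For Snf2h they were 33.2% against 23.6% in replicate 1 and 59.2% against 47.7% in replicate 2. In the 2 longest lists most common regions had a flanking hotspot, and the shares were 87.8% against 84.7% for Brg1 replicate 2 and 89.1% against 87.2% for CHD4 replicate 2. Each library was thus higher beside members than beside common regions at large, by 1.87 to 16.2 points, and in CHD4 replicate 2 the difference was within the counting error. The excess of the CHD4 libraries was not larger than that of the others: their mean was lower by 0.444 points (exact permutation test over the 15 splits of 6 libraries, two-sided p = 1.00, smallest possible p 0.0667).

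The lists differ in threshold, so the same count was made with hotspots of a Z score of at least 9.49, the highest of the 6 list minima. This was added after seeing the data. The shares for members against all common regions were then 51.7% against 34.8% and 53.0% against 34.2% in the CHD4 libraries. They were 69.4% against 55.6% and 63.1% against 47.2% in the Brg1 libraries, and 28.3% against 19.6% and 55.0% against 43.3% in the Snf2h libraries. All 6 differences were positive at this limit, from 8.68 to 18.8 points, and exceeded the counting error. The CHD4 libraries had the largest differences, 16.9 and 18.8 points, beside 13.8 and 15.9 in Brg1 and 8.68 and 11.6 in Snf2h. Their mean excess was now 5.36 points above that of the others. The exact permutation test gave a two-sided p of 0.133, which does not separate them at the smallest p of 0.0667. Brg1-highest regions were closer to all common regions in these shares, at 38.8% and 36.5% for CHD4 and 59.1% and 52.2% for Brg1. Snf2h-highest regions were below them, at 25.8% and 26.2% for CHD4 and 49.2% and 36.4% for Brg1.

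**Figure D4:**
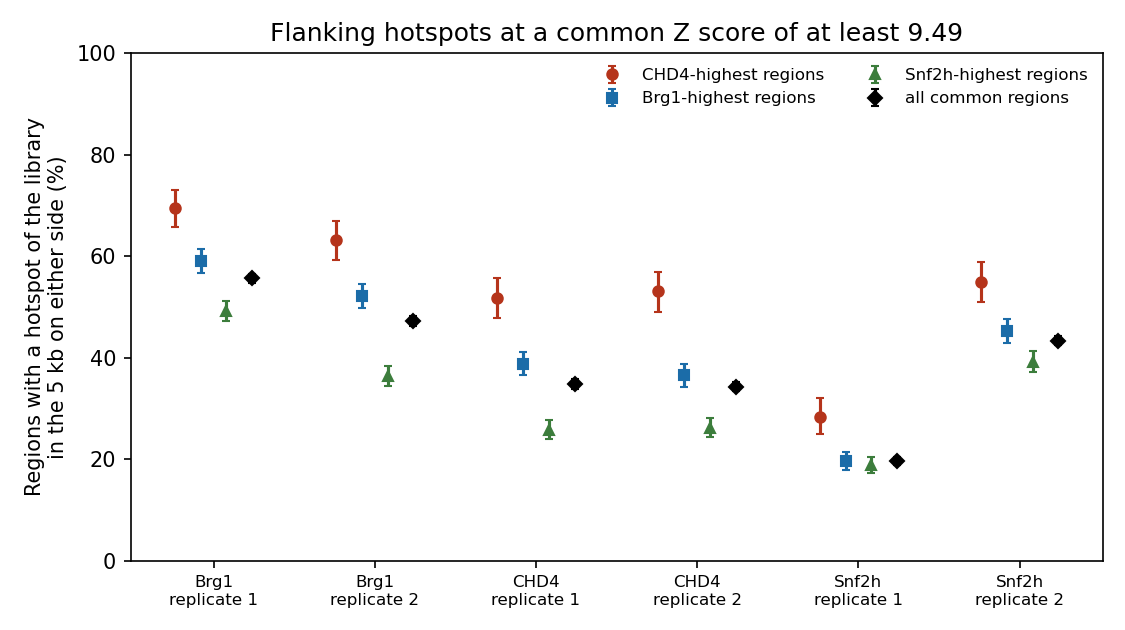
Share of regions with a hotspot of each library (x axis) in the 5 kb on either side, counting hotspots with a Z score of at least 9.49 (y axis, %). Points are the share in CHD4-highest, Brg1-highest, Snf2h-highest and all common regions, and bars are 95% Wilson intervals, which cover counting error only. CHD4-highest regions have the highest share in each of the 6 libraries, from 28.3% for Snf2h replicate 1 to 69.4% for Brg1 replicate 1.

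Part of the flanking hotspots lay in other common regions. Counting only hotspots outside common regions, an alternative also added after seeing the data, the shares were 38.4% against 27.5% in CHD4 replicate 1, 58.9% against 48.5% in Brg1 replicate 1 and 44.9% against 39.5% in Snf2h replicate 2. In the remaining 3 libraries members did not stand apart: the shares were 85.2% against 85.3% in CHD4 replicate 2, 82.9% against 82.0% in Brg1 replicate 2 and 10.9% against 11.3% in Snf2h replicate 1, all within the counting error. With flanks of 10 kb, CHD4 replicate 2 was likewise at 95.8% against 96.2% and Brg1 replicate 2 at 94.8% against 94.7%.

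Members were somewhat tall in Brg1 too, so the shares were also read at 2 levels of height in the other antibodies' libraries, a division added after seeing the data. Among the 366 members whose other 4 libraries averaged above percentile 50, 56.0% had a flanking hotspot of CHD4 replicate 1, against 42.8% of the 5297 common regions alike in that average. Among the 249 members that averaged 50 or less, the share was 49.8% against 31.7% of 5145. For Brg1 replicate 1 the shares were 71.9% against 59.1% and 65.9% against 52.0%. For Snf2h they were 35.2% against 25.6% and 30.1% against 21.6% in replicate 1, and 59.0% against 51.7% and 59.4% against 43.6% in replicate 2. These 4 libraries exceeded the counting error on both sides of that division. In CHD4 replicate 2 the shares were 89.6% against 88.2% and 88.4% against 86.3%, and in Brg1 replicate 2 88.0% against 85.1% and 87.6% against 84.4%, within the counting error on both sides. The part that CHD4 height itself has in it was not tested. The flanking hotspots were also tall within their own lists: their median percentile among all hotspots of CHD4 replicate 1 was 76.0 beside members and 65.2 beside all common regions. In CHD4 replicate 2 it was 86.2 against 76.8, in Brg1 80.9 against 74.8 and 82.4 against 74.9, and in Snf2h 77.1 against 70.3 and 74.7 against 69.4.

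Some CHD4-highest regions had others close by. Within a gap of 10 kb, 209 members had 265 neighbouring common regions, and 44 of these (16.6%, Wilson interval 12.6% to 21.6%) were members too. Over all neighbouring common regions at that gap the share was 9.24%. From 10 to 50 kb it was 9.61% (7.47% to 12.3%) against 7.98%, and from 50 to 100 kb 10.4% (7.96% to 13.4%) against 6.50%. The second of these 3 comparisons was within the counting error. Neighbouring regions are not independent, and each pair of members is counted from both sides, so the intervals are too narrow. Without CHD4 replicate 1 the share within 10 kb was 19.3% against 18.2% over all neighbours, and without CHD4 replicate 2 it was 26.1% against 17.8%. The excess of members near members was thus 7.36 points with both CHD4 libraries and 1.10 points without CHD4 replicate 1. Such grouping was not particular to this set. Within 10 kb, 31.0% of the neighbours of Snf2h-highest regions were Snf2h-highest too, against 18.4% over all neighbours. For Brg1-highest regions the share was 19.2% against 17.4%, within the counting error.

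At the common regions within 10 kb of a member, both CHD4 and Brg1 were above their usual height and Snf2h was close to it. This comparison was added after seeing the data, and it is a description with no test, because 44 of the 265 neighbours are members themselves and were chosen by these heights. The median percentile at these 265 neighbours was 73.8 and 73.7 in the CHD4 libraries, against 62.0 and 61.7 over all neighbouring pairs. In the Brg1 libraries it was 71.0 and 70.5, against 58.4 and 58.3. In Snf2h replicate 1 it was 60.0 against 57.2, and in Snf2h replicate 2 it was 52.8 against 53.5. The excess was thus 11.8 and 12.0 points for CHD4, 12.6 and 12.2 for Brg1, and 2.84 and -0.776 for Snf2h. With members left out of the neighbours and of the pairs alike, which also uses the rule, 221 neighbours remained. Their excess was 10.1 and 12.5 points for CHD4, 10.4 and 12.3 for Brg1, and 2.84 and -0.522 for Snf2h. With gaps of 100 to 1000 kb the excess was 4.63 and 5.10 points for CHD4, 3.95 and 3.60 for Brg1, and 2.84 and 0.532 for Snf2h. The 2.84 points of Snf2h replicate 1 are a single step between its tied heights, from percentile 57.2 to 60.0. No finer size or trend with the gap can be read from that value.

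**Figure D5:**
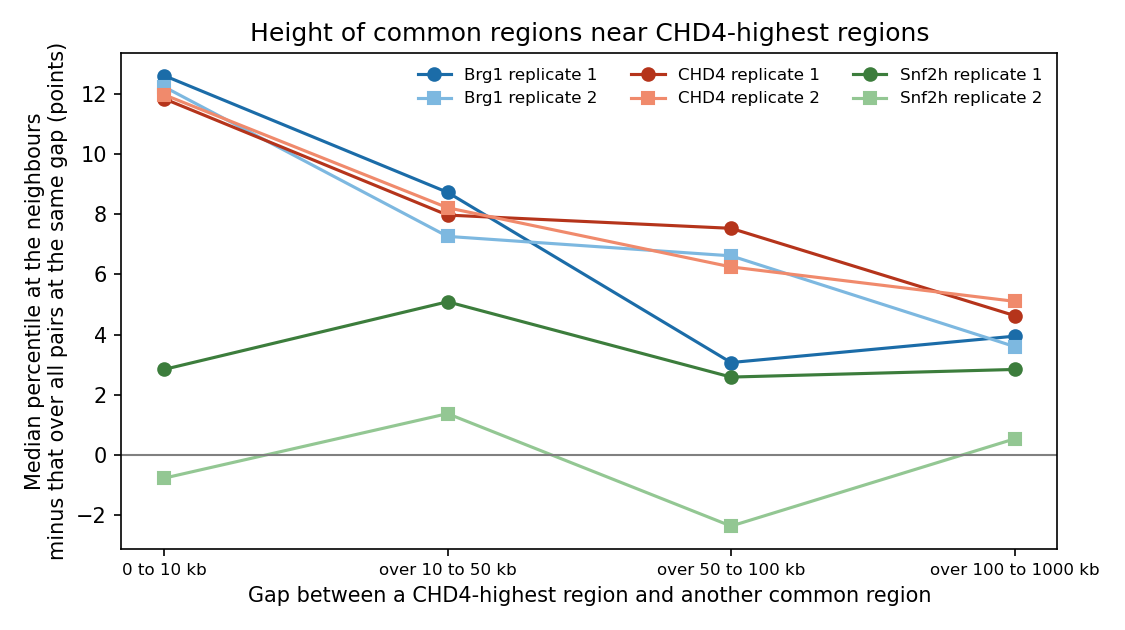
Median percentile of maximum tag density at common regions near CHD4-highest regions, minus the same median over all pairs of common regions at that gap (y axis, percentile points), by the gap (x axis) and library (lines). Within 10 kb the 4 Brg1 and CHD4 libraries lie together between 11.8 and 12.6 points and the Snf2h libraries at 2.84 and -0.776.

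Most members stood singly. Along each chromosome's order of common regions, 512 were single, 88 formed 44 pairs of consecutive regions and 15 formed 5 runs of 3. The runs were on chromosomes 2, 4, 5, 6 and 10. The most compact was on chromosome 5, where regions at 149746669 to 149748968, 149763856 to 149766421 and 149776577 to 149779063 had leads of 0.79, 20.1 and 1.09 points. Its middle region had CHD4 densities of 48.5 and 34.3, at percentiles 95.8 and 97.2, with Brg1 at 72.4 and 75.7 and Snf2h at 62.6 and 57.1 by percentile. On chromosome 6 the run at 149089526 to 149090577, 149136499 to 149138200 and 149141003 to 149143146 changed character along its length. Its first region had Snf2h next, at percentiles 95.7 and 91.4, and its last had Brg1 replicate 2 next, at 93.3.

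In width the CHD4-highest regions were much like the rest. Their median was 1563 bp, against 1500 bp for all common regions, 1462 bp for Brg1-highest and 1404 bp for Snf2h-highest regions. The 132 members with a lead of at least 10 points had a median of 1425 bp, so the difference in width did not hold there. The narrowest member was on chromosome 16 at 77500058 to 77500572, 515 bp, and the widest on chromosome 8 at 129371225 to 129377553, 6329 bp. The hotspots inside them were wider in the CHD4 lists. The tallest hotspot of a member had a median width of 772 bp in CHD4 replicate 1 and 1231 bp in replicate 2, against 625 and 1093 bp over all common regions. In Brg1 the medians were 667 and 1158 bp against 647 and 1167 bp, and in Snf2h 482 and 723 bp against 488 and 726 bp. Width and height come from the same hotspots, so these widths are not independent of the heights that chose the regions.

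The heights compared in a region mostly belonged to the same place in it. At 482 of 615 members (78.4%, Wilson interval 74.9% to 81.4%) the tallest hotspots of all 6 libraries shared at least 1 bp, against 75.4% of all common regions. The tallest hotspot of CHD4 replicate 1 overlapped that of CHD4 replicate 2 at 98.7% of members. It overlapped that of Brg1 at 91.5% and 97.4% and that of Snf2h at 91.9% and 93.8%. Midpoints lay a median of 97.5 and 125 bp apart for Brg1, 125 bp for CHD4 replicate 2, and 81.0 and 71.5 bp for Snf2h. Such a shared place was missing at 5 of the 10 regions of largest lead, those on chromosomes 15, 19 and 7 and both on chromosome 8. At these the tallest hotspots of different libraries stood in part side by side.

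Members were found on all 19 autosomes and on X. Chromosome 6 had the highest share of its common regions among them, 55 of 574 or 9.58% (7.44% to 12.3%). Chromosome 10 followed with 39 of 519, or 7.51%. The lowest shares were 10 of 345 (2.90%, 1.58% to 5.25%) on chromosome 14 and 7 of 241 (2.90%, 1.41% to 5.87%) on X. The intervals of these 3 extremes do not hold the overall 5.89%, although only just for X, and they were picked as extremes among 20 chromosomes.

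Leaving out any 1 library changed the set of regions that met the rule. A region then needed hotspots of only 5 lists, and its CHD4 percentiles had to exceed fewer others or a single CHD4 library had to exceed the rest. The number of CHD4-highest regions was 1763 without CHD4 replicate 1, 1385 without CHD4 replicate 2, 1163 without Brg1 replicate 2, 1674 without Snf2h replicate 1, 971 without Snf2h replicate 2 and 919 without Brg1 replicate 1. The common regions differ between these cases and their number is not given here, so the counts cannot be read as shares. From 537 to 613 of the 615 members were overlapped by the CHD4-highest regions of each case, which follows largely from the dropped condition. With average density in place of maximum density 638 regions met the rule, of which 388 were members, and with the Z score 623, of which 476 were members. When percentiles were taken among all hotspots of each list, which differ in length and threshold, the number fell to 196, of which 146 were members.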

How the data were processed

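Chromatin immunoprecipitation sequencing of the 3134 line gave 6 libraries with a deposited list of hotspots each. The 2 DNA inputs have labels only and were not analysed here. Per the submitters' processing notes, CASAVA 1.6 and the build mm9 were used; for the caller of hotspots and its thresholds, nothing is stated (not given in the sources used here). Per the file headers, each hotspot carries the signal of its tags as a maximum and an average density (no scaling stated) and a Z score. The densities and the score are the authors' own and served only to rank hotspots within a list, except for 1 Z score limit applied to all lists. The deposited p-values were not used. In some hotspots, 2 to 209 per list, the average exceeded the maximum density.

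Intervals were read as closed and merged at 1 bp of overlap with pandas 2.3.3 and numpy 2.4.6 under Python 3.11.15. Intervals and plots used scipy 1.17.1 and matplotlib 3.10.9. Percentiles are mean ranks. Groups and replicate numbers came from sample titles, and numbers served to split the libraries into those that chose regions and those looked up, and for the replicate block given as an alternative. No label says that a number marks a shared batch. Shares carry 95% Wilson intervals. Libraries were compared by an exact permutation test over 15 splits. The members, lists and tests were chosen with earlier results of these data known. Regions were named by rule: the 10 of largest lead, the 5 of highest mean CHD4 percentile, the 3 just inside and outside the threshold, the longest runs, and the narrowest and widest. The ranking was tested on simulated data with planted regions, which checks the procedure and not the regions reported here. In it the rule also called regions with nothing planted. The simulated libraries were alike apart from the planted regions, which the real ones are not. The share called there was set by that design and cannot be compared with the real share. The number of members is a description by the rule and no count of CHD4-specific sites. Sequence, gene and motif content had been planned and needs mm9, which was not used here.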

Additional observations from a re-analysis of the deposited data

How the results depend on the processing

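The CHD4-highest count was 599 with merging at 50% overlap and 574 without regions over 3000 bp, and 132 with a lead of at least 10 points and 196 with percentiles among all hotspots of each list. With a replicate block, comparing each CHD4 library only with the same-numbered Brg1 and Snf2h libraries, it was 946, all 615 members among them; this block asks for fewer comparisons. Leaving out 1 library gave 919 to 1763, each from its own set of common regions. Of regions chosen on replicate 1, the share with CHD4 highest in replicate 2 was 37.1% by average density, against 34.5%; the other 7 settings of the 2 shares were within counting error.

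The CHD4 excess of flanking hotspots over the other libraries changed sign with the setting: -0.444 points as reported, 0.928 with 1 kb, 1.44 with 10 kb, -3.29 with a lead of at least 10 points, 5.36 at the common Z score, 1.31 outside common regions, -0.815 and -0.233 for regions whose other 4 libraries averaged above and up to percentile 50, and -0.173 to 1.41 without each library in turn (1.41 without Brg1 replicate 2, 0.682 without CHD4 replicate 1, 0.904 without Snf2h replicate 1 and 0.682 without Snf2h replicate 2). The exact permutation p lay between 0.133 and 1.00 throughout, so no direction is given.

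The share of neighbours that were members was 11.8% up to 50 kb (8.33% over all pairs) and 11.3% up to 100 kb (7.56%). It was 3.92% with a lead of at least 10 points (1.78%) and 18.1% to 26.1% without each library (10.8% to 18.2%). The median width was 1425 bp with a lead of at least 10 points and 1238 to 1568 bp without each library, and the share with 1 place for all tallest hotspots 74.2% and 76.3% to 84.4%. For height near members, the mean excess of the CHD4 libraries minus that of the other libraries was 5.18 points in the main setting. Without each library it was 3.34 to 10.6 points. In the main setting the Brg1 excess was about as large as that of CHD4, and the difference came with a low Snf2h excess. Of 100 recomputed leads of the 10 named regions, 99 stayed above 0. The exception was chromosome 10 at 40089686, at -3.33 points with percentiles among all hotspots of each list. Most settings only left out a library, which removes a condition, so a lead above 0 was nearly fixed by choosing the largest leads. With percentiles among all hotspots the lead of 59.5 points on chromosome 15 became 15.7, and that of 56.5 on chromosome 19 became 8.86. On chromosome 5 at 17282198 it went from 42.7 to 46.3. The cause of these changes was not tested. Tag depth is unknown, so the precision of single heights cannot be given.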
